A study of Mus musculus with 6 samples.

Results

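The cytosolic RNA and Z-nucleic acid sensors described here are 5 genes, Ifih1, Dhx58, Mavs, Zbp1 and Eif2ak2, chosen by symbol from the 16533 genes of the count tables; all 5 were present in every table and passed the filter on low counts. They were measured by RNA-seq in mouse inferior vena cavae with their thrombi, taken 24 h after the vein was ligated, a model of deep vein thrombosis. Controls were Stingf/f mice, which carry a floxed Sting1 gene, and the other group, called mKO, was Stingf/f Lyzm-Cre+/-, which carries the same floxed gene and 1 copy of a Cre driven from the lysozyme M locus; this Cre acts in neutrophils, monocytes and macrophages, so vessel wall cells, platelets and lymphocytes of mKO mice are expected to keep the gene. Each group has 3 libraries, and each library pools 3 thrombi, so that an SD or p-value measures the spread between pools and not between mice. The series asks how myeloid loss of STING, the adaptor of cytosolic DNA sensing, alters expression in the thrombosed vein.

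MDA5 (encoded by Ifih1) and LGP2 (Dhx58) are RIG-I-like receptors, helicases that bind double-stranded RNA in the cytosol. MDA5 carries caspase recruitment domains and passes its signal to MAVS, an adaptor on the outer mitochondrial membrane that activates the kinases upstream of IRF3, IRF7 and NF-kB; LGP2 lacks these domains and modulates its relatives. ZBP1 binds nucleic acids in the left-handed Z form and recruits RIPK3, which can lead to necroptosis or caspase-driven death. PKR (Eif2ak2) is a kinase that, once bound to double-stranded RNA, phosphorylates eIF2alpha and slows translation. Most of these genes are themselves induced by interferon, so RNA sensors and the interferon response form a feed-forward circuit, whereas Mavs is known as a broadly expressed adaptor.

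Library totals ranged from 158579864 to 180068483 counts, and no member had fewer than 1528 counts in any library, where counting error alone is 2.56%. Levels are given in CPM, counts divided by TMM-scaled library sizes. Sting1, summed over the whole gene and all cells, had 25.1 to 31.4 CPM in control and 21.4 to 28.7 CPM in mKO, and so overlapped; Lyz2, the locus that carries Cre, had 1430 to 1885 CPM in control and 643 to 1153 CPM in mKO. The tissue's defining markers were present in every library: endothelial markers summed to 580 to 918 CPM, smooth muscle markers to 582 to 2817 CPM and platelet markers to 2987 to 5780 CPM. The library of mKO pool 3 stood apart, with 165 CPM of skeletal muscle markers against 2.96 to 46.1 CPM elsewhere, and 0.773 CPM of sympathetic neuron markers against 73.3 to 214 CPM elsewhere. In bulk tissue, fewer cells of a type and less RNA per cell cannot be told apart.

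All 5 genes had a lower mean in mKO than in control. The estimated mKO level was 51.3% of control for Zbp1, 60.8% for Ifih1, 63.8% for Eif2ak2, 66.2% for Dhx58 and 83.2% for Mavs. None passed an adjusted p of 0.05 by edgeR's quasi-likelihood test over 16523 genes, where 0 genes (0%) passed in either direction and the smallest adjusted p was 0.134. At an unadjusted p under 0.05, 4 of the 5 were lower in mKO (all but Mavs), beside 6.26% of all genes tested; 1960 genes (11.9%) had such a p in either direction. For 3 of the 5 (Ifih1, Zbp1 and Eif2ak2) every mKO library lay below every control library, beside 9.39% of all genes tested (18.2% in either direction). DESeq2 called 1 of the 5, Zbp1, as lower, beside 1.37% of the genes it tested (466 genes, 2.88%, in either direction), and limma voom called 0 genes. The 5 genes were chosen with results of these data known, so these shares describe them and do not test them.

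**Figure D1:**
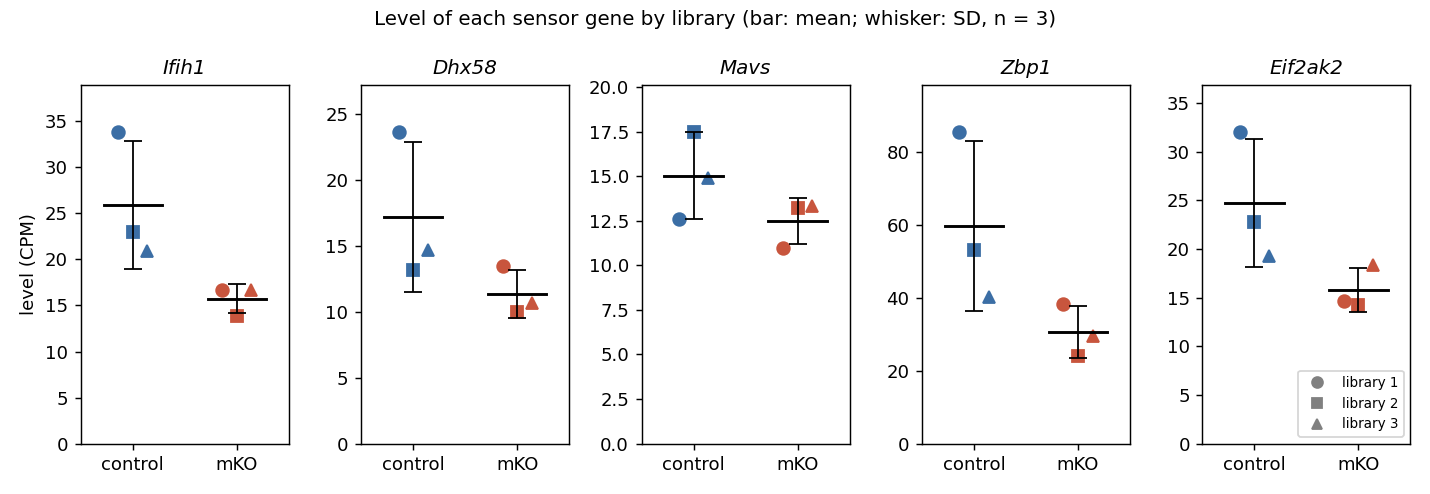
Level in CPM (vertical axes, each from 0) of the 5 genes in the 3 control (blue) and 3 mKO (red) libraries; symbols mark library numbers, bars the mean and whiskers the SD (n = 3). Control library 1 is the highest point for Ifih1, Dhx58, Zbp1 and Eif2ak2, at 33.8, 23.7, 85.6 and 32.0 CPM, but not for Mavs, at 12.6 CPM.

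Ifih1 (ENSMUSG00000026896, chromosome 2), the gene of MDA5, had 33.8, 22.9 and 20.9 CPM in control libraries 1 to 3 and 16.7, 13.9 and 16.7 CPM in mKO libraries 1 to 3. Its groups did not overlap, and the lowest control library stood 1.25 times above the highest mKO library, the widest such gap of the 5 genes. The mean was 25.9 ± 6.95 CPM in control against 15.7 ± 1.62 CPM in mKO (n = 3 each, SD). The log2 fold change, mKO over control, was -0.72 (SE 0.19, 95% interval -1.16 to -0.28), with an adjusted p of 0.274 by edgeR; the exact permutation test (two-sided) gave a p of 0.1, the smallest that 3 against 3 libraries allow. Ranked by edgeR p, Ifih1 was number 360 of all genes tested, ahead of the 4 others.

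Dhx58 (ENSMUSG00000017830, chromosome 11), the gene of LGP2, had 23.7, 13.2 and 14.7 CPM in control and 13.4, 10.001 and 10.7 CPM in mKO. Here the groups overlapped, since mKO library 1 lay just above control library 2, and control library 1 stood far above all others. The mean was 17.2 ± 5.66 CPM in control against 11.4 ± 1.83 CPM in mKO (n = 3 each, SD). Its log2 fold change was -0.60 (SE 0.24, 95% interval -1.15 to -0.04; edgeR adjusted p 0.394, exact two-sided permutation p 0.2). The strand setting of the counting is not known, so reads of the antisense gene Dhx58os, which overlaps Dhx58 exons in the GENCODE M21 annotation, may be shared with it; Dhx58os had 0.151 to 0.503 CPM.

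Mavs (ENSMUSG00000037523, chromosome 2), the mitochondrial adaptor that MDA5 engages, had 12.6, 17.5 and 14.9 CPM in control and 10.99, 13.2 and 13.3 CPM in mKO. Control library 1 was the lowest control here, below mKO libraries 2 and 3, and control library 2 the highest. The mean was 15.01 ± 2.44 CPM in control against 12.5 ± 1.30 CPM in mKO (n = 3 each, SD), with a log2 fold change of -0.26 (SE 0.15; edgeR adjusted p 0.503, exact two-sided permutation p 0.3). The 95% interval ran from -0.61 to 0.08, so a difference as large as that estimated for Dhx58 lies within it.

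Zbp1 (ENSMUSG00000027514, chromosome 2), the Z-nucleic acid sensor, had 85.6, 53.2 and 40.3 CPM in control and 38.3, 24.1 and 29.5 CPM in mKO. The groups did not overlap but nearly met, with control library 3 only 1.05 times above mKO library 1. Its libraries also spread most within a group, 2.12 times from lowest to highest in control and 1.58 times in mKO. The mean was 59.7 ± 23.3 CPM in control against 30.6 ± 7.13 CPM in mKO (n = 3 each, SD), a log2 fold change of -0.96 (SE 0.30, 95% interval -1.68 to -0.25). By edgeR the adjusted p was 0.329, by DESeq2 it was 0.0466, and by exact permutation (two-sided) 0.1. Over the 17 alternative fits the adjusted p ran from 0.0466 with DESeq2 to 0.735 without control library 2.

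Eif2ak2 (ENSMUSG00000024079, chromosome 17), the gene of PKR, had 32.0, 22.7 and 19.3 CPM in control and 14.7, 14.2 and 18.4 CPM in mKO. As for Zbp1, the groups did not overlap by a narrow margin, 1.05 times between control library 3 and mKO library 3. The mean was 24.7 ± 6.59 CPM in control against 15.8 ± 2.27 CPM in mKO (n = 3 each, SD), a log2 fold change of -0.65 (SE 0.20, 95% interval -1.11 to -0.18; edgeR adjusted p 0.317, exact two-sided permutation p 0.1).

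Control library 1 carried much of the difference in the sensors. Without it, the log2 fold change was -0.48 for Ifih1, -0.30 for Dhx58, -0.61 for Zbp1 and -0.41 for Eif2ak2, and that of Mavs was larger, at -0.38. By edgeR 4 members then had an unadjusted p under 0.05, but a different set: Dhx58 left it (p 0.116) and Mavs entered it (p 0.0368). Over all genes, 2370 had such a p without this library, beside 1960 with it. Leaving out mKO library 2 left 2 members, Ifih1 and Eif2ak2, among 1684 genes. Mavs depended on control library 2, without which its log2 fold change was -0.14. The sign of all 5 estimates was negative in each of the 17 alternative fits.

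**Figure D2:**
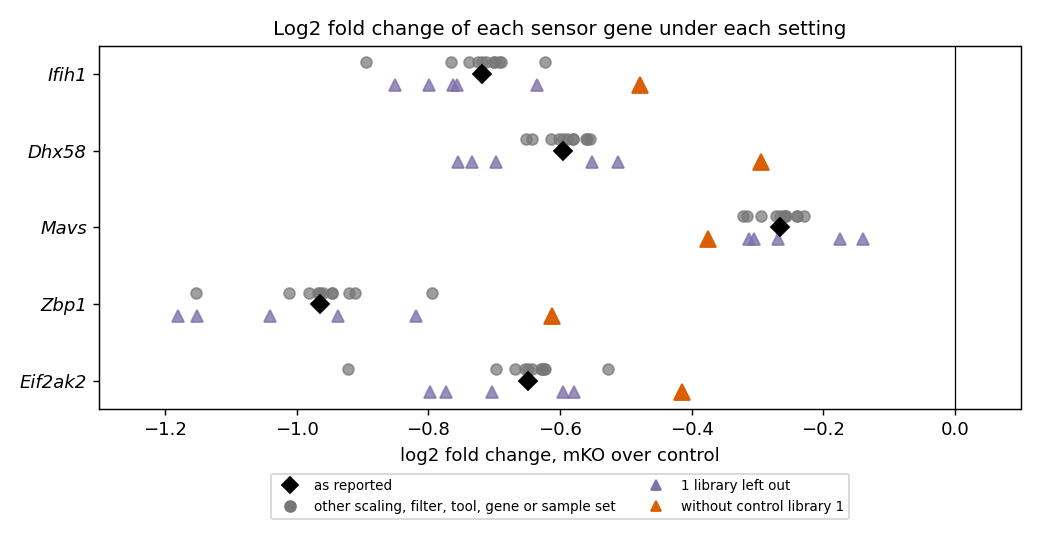
Log2 fold change, mKO over control (horizontal axis), of the 5 genes as reported (black diamonds), under other scalings, filters, tools, gene or sample sets (grey circles) and with 1 library left out (triangles; orange without control library 1). Every point lies below 0; for Dhx58 the value without control library 1 is -0.30 against -0.60 with all libraries.

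Compared per kilobase of exon, Zbp1 was the most abundant of the 5 in both groups. It had 16.9 ± 6.60 CPM per kb in control and 8.68 ± 2.02 CPM per kb in mKO (SD, n = 3 each), and its lowest library in either group exceeded every library of the 4 other genes in that group. In control the order went on with Dhx58 at 5.25 ± 1.73, Eif2ak2 at 4.83 ± 1.29, Mavs at 4.49 ± 0.728 and Ifih1 at 3.17 ± 0.852 CPM per kb (SD, n = 3 each), and each of these overlapped its neighbours. In mKO the order below Zbp1 was Mavs at 3.74 ± 0.390, Dhx58 at 3.48 ± 0.559, Eif2ak2 at 3.08 ± 0.444 and Ifih1 at 1.93 ± 0.198 CPM per kb (SD, n = 3 each). There Mavs, Dhx58 and Eif2ak2 overlapped, while Ifih1 lay below all others, at 1.70 to 2.04 CPM per kb. Exon lengths came from GENCODE M21, an annotation of an earlier build than the one the counts used.

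Count ratios between 2 members within a library do not depend on library size. The ratio of Ifih1 to Eif2ak2 counts was nearly constant, at 1.06, 1.01 and 1.08 in control and 1.13, 0.976 and 0.909 in mKO. In contrast, the ratio of Mavs to Zbp1 counts ran from 0.148 in control library 1 to 0.547 in mKO library 2, with means of 0.282 ± 0.118 in control and 0.429 ± 0.131 in mKO (SD, n = 3 each). On the log2 scale this ratio was higher by 0.66 in mKO, with an exact two-sided permutation p of 0.3. For all 10 pairs the groups overlapped, and the smallest exact permutation p was 0.2 (adjusted over the 10 pairs, 0.667). With 3 pools a group this test cannot go below 0.1 for a pair, so no pair could have passed and it says nothing on whether members differ in response.

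The library pattern of the members was set beside 19 other interferon-induced genes, such as Isg15, Usp18 and Mx1. As log2 CPM relative to the mean of the 6 libraries, the median of these 19 genes was 0.72, 0.27 and -0.03 in control libraries 1 to 3 and -0.18, -0.71 and -0.19 in mKO libraries 1 to 3. Zbp1 had 1.05, 0.36 and -0.04 in control and -0.11, -0.78 and -0.49 in mKO on the same scale. Both were highest in control library 1 and lowest in mKO library 2, as were Ifih1 (0.76 and -0.52), Dhx58 (0.79 and -0.45) and Eif2ak2 (0.72 and -0.45). Mavs had -0.11 and -0.04 in these libraries.

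**Figure D3:**
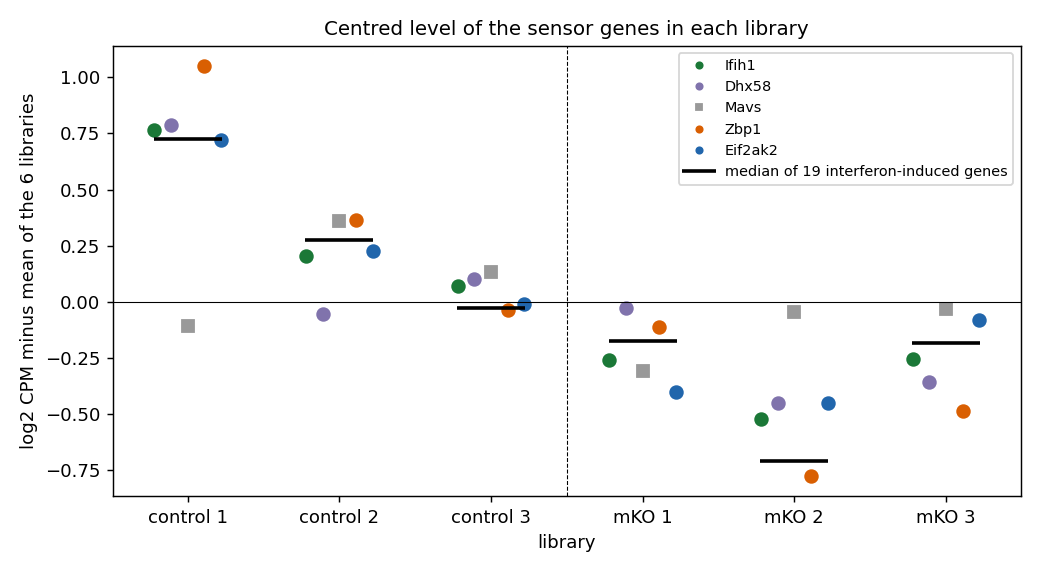
Log2 CPM of each gene minus its mean over the 6 libraries (vertical axis) in each library (horizontal axis); coloured points are the 5 genes, with Mavs as grey squares, and black bars the median of 19 interferon-induced genes. Ifih1, Dhx58, Zbp1 and Eif2ak2 reach 0.72 to 1.05 in control library 1, while Mavs is at -0.11 there.

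The genes with the most similar pattern were taken as those with the smallest root mean square difference from a member in centred log2 CPM over the 6 libraries, among 13889 genes with a mean of at least 1 CPM. For Zbp1 these were Ifit1 (difference 0.063), Irf7 (0.086) and Usp18 (0.086), and for Eif2ak2 they were Gvin1 (0.071), Gvin2 (0.073) and Stat2 (0.088). Ifih1 was nearest to Ifi209 (0.085), Oas1b (0.092) and Cyp26b1 (0.10), and Dhx58 to Ifi207 (0.077), Il18bp (0.091) and Il15ra (0.099). Mavs was nearest to 2510009E07Rik (0.014), Nav1 (0.045) and Cavin2 (0.046). Among the members themselves the nearest pair was Ifih1 and Eif2ak2 (0.10) and the farthest Mavs and Zbp1 (0.60). Ifi207, Ifi209, Gvin1, Gvin2 and Oas1b belong to families of near-identical genes, so reads shared among copies make their counts uncertain.

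Promoter windows from RefSeq (build GRCm38.p6, earlier than that of the counts), 250 bases before to 50 bases after each gene's start, were at hand for 3 members, Ifih1, Mavs and Eif2ak2; Dhx58 and Zbp1 had no entry. They were searched on both strands for the core of the interferon-stimulated response element, read as GAAA, any pair of bases and GAAA again, a motif known from the promoters of interferon-induced genes. Ifih1 and Eif2ak2 each held 1 match, just downstream of the start, at positions 33 to 42 and 19 to 28 counted from the first base of the gene. The sites are shown with flanks because both genes hold the motif near the start, though with a different middle pair of bases (matches in capitals):
Ifih1, site (chr2:62646206-62646235, minus strand): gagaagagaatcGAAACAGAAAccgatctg
Eif2ak2, site (chr17:78882535-78882564, minus strand): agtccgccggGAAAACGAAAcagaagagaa
The Mavs window held no match to the motif. The 250 bases upstream of the start held none in Ifih1 and Eif2ak2 either, whose matches lay downstream of it. The same 250 bases of Mavs, 65.2% G and C, are shown with no capitals because nothing matched:
Mavs, upstream (chr2:131233813-131234062, plus strand): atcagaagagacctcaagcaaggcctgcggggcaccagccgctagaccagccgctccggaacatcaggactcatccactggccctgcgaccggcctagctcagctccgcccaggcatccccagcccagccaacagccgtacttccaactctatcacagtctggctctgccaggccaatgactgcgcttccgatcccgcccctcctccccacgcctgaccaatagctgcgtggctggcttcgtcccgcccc
Of all 32851 windows of this length, 3.44% held the motif. Among the 19 interferon-induced genes, 13 had a window, and 6 of these held it. In the pathway lists read below, 2 of 11 cofactors of RIG-I-like receptors with a window held it. So did 3 of 19 eIF2alpha pathway genes, 2 of 15 other RNA sensors, 1 of 8 ZBP1 partners and 1 of 21 MAVS chain genes. A further motif, GAS, read as TTCNNNGAA with N for any base, was also searched. Eif2ak2 held 1 match to it, upstream of the start at positions -178 to -170, and Ifih1 and Mavs held none. It was held by 8.3% of all windows and by 3 of 13 windows of the interferon-induced genes. A match describes letters in a window and does not show that a factor bound there.

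The other genes of each pathway were read from lists written from general knowledge, with earlier results of these data known. For the cofactors of RIG-I-like receptors, 0 of 15 passed by edgeR, and the median log2 fold change was 0.05, beside -0.03 over all genes tested. At an unadjusted p under 0.05, 1 was lower, beside 6.26% of all genes tested. Ddx58, the gene of RIG-I itself, had 81.5, 54.5 and 47.4 CPM in control and 40.8, 42.3 and 48.9 CPM in mKO. Its groups overlapped, and its log2 fold change was -0.47 (SE 0.21, edgeR adjusted p 0.424). Ddx60, a helicase of the same circuit, had 14.7 ± 7.73 CPM in control against 8.12 ± 0.679 CPM in mKO (n = 3 each, SD; log2 fold change -0.86, SE 0.34, edgeR adjusted p 0.407). Without control library 1 these log2 fold changes were -0.21 for Ddx58 and -0.34 for Ddx60. Riok3, the most abundant of the list, had a value of 0.11 (SE 0.16).

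Downstream of Mavs, 0 of 24 measured genes of the signalling chain passed by edgeR, and their median was 0.12. Of these, 17 had a positive and 7 a negative estimate, beside 7576 and 8947 of all genes tested. At an unadjusted p under 0.05, 3 were higher and 1 lower, beside 926 and 1034 of the 16523 genes tested. Irf7, the interferon-inducible transcription factor of the chain, was the lower one, with 257, 144 and 121 CPM in control and 98.9, 68.2 and 89.3 CPM in mKO (log2 fold change -1.02, SE 0.30, edgeR adjusted p 0.312). Traf3, a ubiquitin ligase that MAVS recruits, was among the higher ones, with 23.6, 22.6 and 21.1 CPM in control and 28.3, 28.3 and 29.8 CPM in mKO (log2 fold change 0.36, SE 0.09, edgeR adjusted p 0.246). The groups of both genes did not overlap, in opposite directions, and DESeq2 called both (adjusted p 0.0269 for Irf7 and 0.0207 for Traf3). Without control library 1 the log2 fold change of Irf7 was -0.63. The 2 others, named after their values were seen, were Irf3, the constitutive counterpart of Irf7, at 0.25 (SE 0.10) and Ikbkg, the regulatory subunit NEMO of the IKK complex, at 0.47 (SE 0.16). Pcbp2, an inhibitor of MAVS and the most abundant gene of the list, had 0.12 (SE 0.13).

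**Figure D4:**
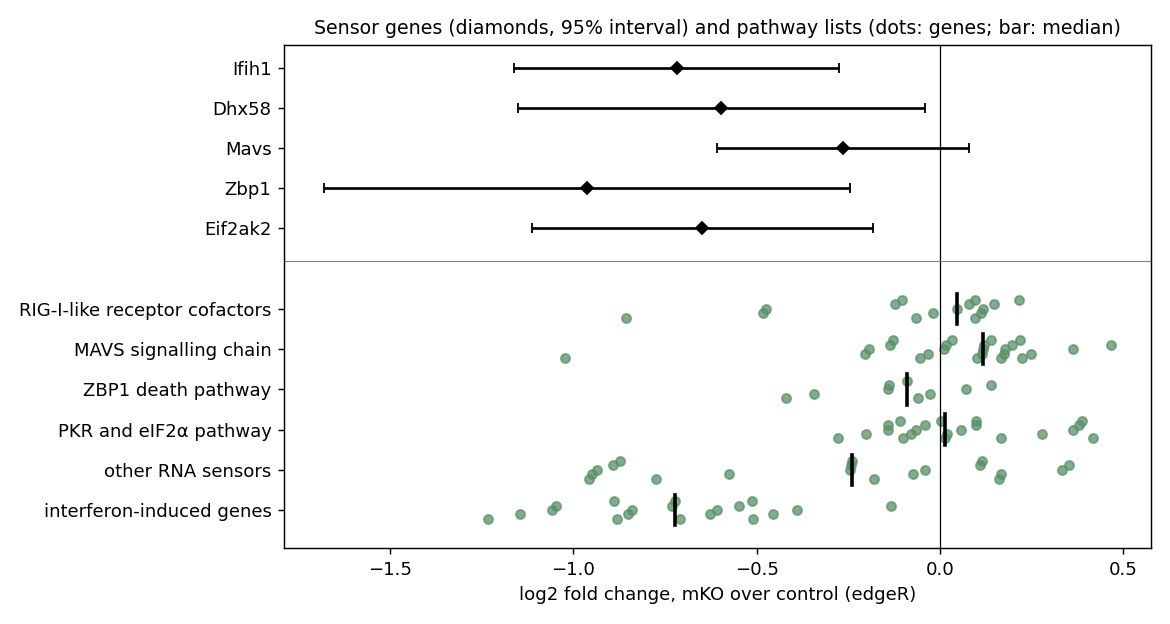
Log2 fold change, mKO over control (horizontal axis), of the 5 genes with 95% intervals (diamonds) and of each measured gene in 6 pathway lists (dots), with the median of each list as a black bar. The interferon-induced list, written with earlier results of these data known, has a median of -0.72. Beside it, Ifih1 is at -0.72, Dhx58 at -0.60, Eif2ak2 at -0.65 and Zbp1 at -0.96. The lists of cofactors, MAVS signalling and eIF2alpha have medians of 0.05, 0.12 and 0.01. Those of ZBP1 partners and other RNA sensors are -0.09 and -0.24.

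Partners of Zbp1 in cell death gave 0 of 9 genes past the edgeR threshold and 0 at an unadjusted p under 0.05, with a median of -0.09. Ripk3, the kinase that ZBP1 recruits, had 14.7 CPM in control against 13.3 CPM in mKO, a log2 fold change of -0.14 (SE 0.10). Mlkl, the pore-forming executioner of necroptosis, had -0.42 (SE 0.20, edgeR adjusted p 0.459). Adar, whose interferon-induced form edits double-stranded RNA and restrains MDA5, PKR and ZBP1, had 58.5 ± 15.3 CPM in control against 46.1 ± 5.05 CPM in mKO (n = 3 each, SD; log2 fold change -0.34, SE 0.19, edgeR adjusted p 0.505). Without control library 1 Adar was at -0.11, and without mKO library 2 Mlkl was at -0.24. Cflar, the caspase-8 inhibitor cFLIP, had 0.07 (SE 0.14), and the sign turned without control library 2 or mKO library 2.

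Around PKR, 0 of 21 genes of the eIF2alpha pathway passed by edgeR, and the median was 0.01. At an unadjusted p under 0.05, 1 was lower, beside 6.26% of all genes tested. The 3 other eIF2alpha kinases, named after their values were seen, had log2 fold changes of 0.06 (Eif2ak1, SE 0.13), 0.42 (Eif2ak3, SE 0.26) and 0.17 (Eif2ak4, SE 0.12), beside -0.65 for Eif2ak2; the sign of Eif2ak1 turned with library totals only. Ppp1r15a, the phosphatase subunit GADD34 that reverses eIF2alpha phosphorylation, had 129 ± 26.1 CPM in control against 169 ± 27.3 CPM in mKO (n = 3 each, SD; log2 fold change 0.39, SE 0.20, edgeR adjusted p 0.474). Asns, the asparagine synthetase that ATF4 induces, had -0.28 (SE 0.11, edgeR adjusted p 0.406), and Atf4 itself, the most abundant gene of the list, 0.10 (SE 0.17). Ppp1r15a was at 0.23 and Eif2ak3 at 0.20 without control library 2, and Asns at -0.18 without mKO library 3.

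Other RNA sensors gave 0 of 19 past the edgeR threshold, with a median of -0.24. At an unadjusted p under 0.05, 1 was higher and 4 lower, beside 926 and 1034 of the 16523 genes tested. The lower ones were the double-stranded RNA sensors Oas1a (log2 fold change -0.94, SE 0.27), Oas2 (-0.95, SE 0.31) and Oasl2 (-0.89, SE 0.32), and the endosomal receptor Tlr3 (-0.58, SE 0.24), the last named after its value was seen; their edgeR adjusted p ran from 0.312 to 0.407, and of these DESeq2 called Oas1a (adjusted p 0.0385). Without control library 1 the log2 fold change was -0.54 for Oas1a, -0.56 for Oas2 and -0.40 for Oasl2, and without mKO library 2 that of Tlr3 was -0.36. Oas paralogs are similar in sequence, and their counts are uncertain for that reason. Among the 19 interferon-induced genes, 0 passed by edgeR, and 15 were lower at an unadjusted p under 0.05, beside 6.26% of all genes tested. All 19 had negative estimates, beside 8947 of the 16523 genes tested, and the median was -0.72. Like the other lists, this list was written with earlier results of these data known. Ifit2 had -0.73 (SE 0.14, edgeR adjusted p 0.188) and Xaf1 -1.06 (SE 0.23, edgeR adjusted p 0.225), both called by DESeq2 (adjusted p 0.00173 and 0.00307), while Rsad2, viperin, had -0.13 (SE 0.21) and its sign turned without control library 1. Without that library the median of the 19 genes was -0.43.

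Marker lists of other cell types were summed beside these results. Markers of neutrophils summed to 9640 to 15810 CPM in control and 13710 to 19080 CPM in mKO, and those of monocytes and macrophages to 1115 to 1632 and 1562 to 1953 CPM; both overlapped, and 6 of 8 genes in each list had a positive log2 fold change. Sums for endothelium were 795 to 918 CPM in control and 580 to 714 CPM in mKO, and for adipocytes 1021 to 1184 and 615 to 865 CPM. These 2 sums, of 13 lists, did not overlap, with 6 of 6 and 4 of 4 genes negative and none at 0 in any library. Gene by gene, 2 of 6 and 2 of 4 were lower without overlap, beside 9.39% of all genes tested, and edgeR called 0. Control library 1, highest for Ifih1, Dhx58, Zbp1 and Eif2ak2, had the lowest endothelial and adipocyte sums of the control libraries. Its T and NK cell, dendritic cell, platelet, skeletal muscle and sympathetic neuron sums were also the lowest of the control libraries. Its neutrophil sum, 15810 CPM, and its monocyte and macrophage sum, 1632 CPM, were the highest of the control libraries. T and NK cell markers overlapped, at 15.01 to 28.4 CPM in control and 15.5 to 18.6 CPM in mKO. Dendritic cell markers, at 9.16 to 12.0 and 9.58 to 10.6 CPM, also overlapped. So did the sums for B cells, fibroblasts, platelets, red cells and the remaining lists. Red cell markers summed to 200900 to 259000 CPM in control and 238900 to 284900 CPM in mKO. Of these overlapping lists, smooth muscle, platelets and sympathetic neurons also had only negative genes, and red cells and skeletal muscle only positive ones. Smooth muscle markers were highest in control library 2, at 2817 CPM against 582 to 1322 CPM elsewhere, the library where Mavs was highest. That library also had the highest sums for endothelium, adipocytes, fibroblasts, T and NK cells, B cells and dendritic cells, so the match is not particular to smooth muscle. The part of cell composition in the member values was not tested.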

How the data were processed

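Each library came with a table of whole-number counts per gene, unnormalized, as deposited by the authors. Tools listed by the submitters' processing notes, without roles, are HISAT2 2.1.0, FastQC 0.11.8, featureCounts 2.0.1 and Trim Galore 0.4.0, on GRCm39; annotation, strand setting, handling of shared reads and the rule that shortened the gene list were not found in any source used here. In R 4.3.3, edgeR 4.0.16 (quasi-likelihood, robust, TMM, default expression filter) compared the groups, with Benjamini-Hochberg adjustment over all genes tested and a threshold of 0.05; the SE is that implied by the F-test. Log2 CPM used a prior count of 2. Single values were also permuted exactly (two-sided, 3 against 3 libraries). DESeq2 1.42.0, limma 3.58.1 voom, other scalings and filters, a replicate block and leaving out libraries were alternatives; the fits were tested on simulated data.

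The 5 members and the gene lists were chosen with earlier results of these data known, and no list was tested as a set. Named list genes are the 2 with the smallest p and the 1 with the highest mean CPM per list, as none passed by edgeR; others are marked. Of 16533 gene identifiers, 16490 matched GENCODE M21. Rigi was matched as Ddx58, and Ifnb1 was not analysed here. No pair of libraries agreed within sampling noise.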

Additional observations from a re-analysis of the deposited data

How the results depend on the processing

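With 3 pools a group, leaving out 1 library leaves an arm of 2, and p-values cover only the spread between pools. All 5 members kept a negative sign and, by edgeR and voom, stayed short of the adjusted threshold in every alternative; DESeq2 called Zbp1 (-0.947) and so 1 member, with 466 genes in all, among them Irf7, Traf3, Oas1a, Ifit2 and Xaf1 of the named list genes. Without control 3 and mKO 3, the 2 libraries highest in skeletal muscle markers, 6 genes were called. Leaving out 1 library at a time gave 0 to 7 called genes and 0 to 0 called members, with 2 to 4 members at an unadjusted p under 0.05. From 1090 to 2370 of all genes had such a p by edgeR, in either direction. Over these fits the log2 fold change ran from -0.851 to -0.478 for Ifih1, -0.755 to -0.295 for Dhx58, -0.375 to -0.140 for Mavs, -1.181 to -0.612 for Zbp1 and -0.797 to -0.415 for Eif2ak2, nearest 0 without control library 1 except for Mavs (control library 2). The members whose groups did not overlap numbered 4 with upper quartile scaling, where Dhx58 joined; this count and that of unadjusted p were added after seeing the data. No-overlap counts over the left-out libraries ran from 3 to 4, but an arm of 2 separates more easily than an arm of 3. The share of all genes without overlap is not given for these fits or for upper quartile scaling. These counts therefore do not show stability.

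List medians near 0 turned with the scaling. The eIF2alpha median was 0.036 with DESeq2 size factors in edgeR and with DESeq2, -0.013 with upper quartile, -0.043 with library totals and -0.009 without the 2 muscle-rich libraries, and ran from -0.013 to 0.034 over left-out libraries. The cofactor median was -0.005 with library totals and ran from -0.008 to 0.118, and the ZBP1 partner median was -0.137 with library totals and ran from -0.143 to -0.055. Over left-out libraries Rsad2 ran from -0.261 to 0.163, Cflar from -0.038 to 0.127, Riok3 from -0.011 to 0.202, Atf4 from 0 to 0.219 and Eif2ak1 from -0.056 to 0.146; Eif2ak1 was -0.001 with library totals and -0.004 with voom quality weights. The cause was not tested.

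Replicate numbers match across groups, but same-numbered libraries did not deviate together (correlations -0.136, -0.152 and -0.267), so no pairing is shown; with the number as a replicate block, edgeR called 0 genes and the values were -0.692 for Ifih1, -0.560 for Dhx58, -0.257 for Mavs, -0.920 for Zbp1 and -0.625 for Eif2ak2 (adjusted p 0.475 to 0.715). For the members, counting error at the lowest count ran from 1.65% (Zbp1) to 2.56% (Dhx58), below their spread between pools. Whether depth limits the calls over all genes was not tested.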
